A study of Mus musculus with 2 samples.

Results

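Contacts that join the proximal to the intermediate VH genes of the immunoglobulin heavy chain locus (Igh) in mouse B cells were measured by 5C, chromosome conformation capture carbon copy. A contact belongs here when it joins a forward-primer fragment to a reverse-primer fragment, 1 of them with its midpoint in the intermediate section, chr12:115290001-115820000 (mm9), and the other in the proximal section, which runs from position 114735001 of chromosome 12 up to the intermediate section, and when their midpoints are at least 10 kb apart. This position rule used no measured value and gave 590 pairs, of 10584 in the whole table and 10415 at least 10 kb apart. The study mapped contacts across the locus in 2 libraries, described as biological replicates, of C57Bl/6 splenic B cells that had been depleted of CD43+ cells and grown for 40 hours with LPS+IL4. There was 1 group and no other cell state, so every comparison below is between pairs or fragments of the same libraries.

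In 5C, crosslinked chromatin is cut with HindIII, nearby ends are ligated, and each ligation product is amplified by a forward primer on 1 fragment and a reverse primer on the other, so that the count of a pair measures how often the fragments were joined. The VH genes supply the largest part of the antibody heavy chain variable region, and in developing B cells a VH gene must be brought to a DJ segment that can lie far away on the chromosome; the locus folds into loops and contracts to allow this. Proximal VH genes lie next to the D segments, at lower mm9 coordinates, distal VH genes at the opposite end, and the intermediate section, made of many small families, lies between them. LPS with IL4 drives class switching, a later step that takes place at the constant genes. Splenic B cells already carry rearranged Igh alleles, on which the DNA between the chosen VH gene and its D segment has been removed, so the counts average over cells and alleles of different structure.

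The section names follow position only. In RefSeq's order of genes on GRCm38.p6, used for names and neighbourhood alone, 183 Ighv entries were listed. The 32 nearest the D segments were 20 of Ighv5, 11 of Ighv2 and 1 of Ighv6, the next 32 held 13 families, and the 119 beyond were led by 92 of Ighv1. No mm9 annotation or genome sequence was used here, so no fragment could be assigned to a VH gene, exon or intergenic region. Fragments are therefore named by the authors' fragment number, which rises along the chromosome, and by mm9 position.

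The proximal section held 25 assayed fragments, 10 with forward and 15 with reverse primers, with a median length of 2732 bp. The intermediate section held 48, 22 forward and 26 reverse, with a median length of 2439 bp. The assayed fragments covered 19.9% of the proximal and 30.3% of the intermediate section, and the longest gaps without one were 56.5 kb (chr12:115152741-115209243) and 53.1 kb (chr12:115444954-115498082). Pairs of like primers cannot be read by this assay, so 260 pairs joined a proximal forward fragment to an intermediate reverse fragment and 330 joined a proximal reverse to an intermediate forward fragment. Midpoints lay 86.3 to 1066 kb apart, with a median of 619 kb.

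The tables held 14503618 counts in replicate 1 and 17658603 in replicate 2, and the 590 pairs took 33807 and 63706 of these, or 0.233% and 0.361%. Replicate 1 gave the median pair 24 counts, with a 95% exact Poisson interval from 15.4 to 35.7. Replicate 2 gave it 61 counts, with an interval from 46.7 to 78.4. These intervals cover counting error only, since amplified products are not independent molecules. The quartiles were 7 and 68.75 counts in replicate 1 and 29 and 124.75 in replicate 2, and the highest pairs reached 721 and 1573. A single pair was thus thinly sampled.

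In all, 562 of the 590 pairs (95.3%) had counts in both replicates, close to the 96.5% of all pairs at least 10 kb apart. The other 28 were at 0 in replicate 1 only. In replicate 2 these 28 had a median of 11 counts and at most 62, and 6 of them involved reverse 345 (chr12:115623606-115628290), so the zeros sat among weakly counted fragments. By its share of all counts, 475 of the 590 pairs were higher in replicate 2, as were 6982 of all 10415 pairs and 3031 of the 4408 others in the same distance range. All pairs at least 10 kb apart together took 21.3% of the counts in replicate 1 and 31.5% in replicate 2. The block's rise in share thus came with a rise over all such pairs.

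Contacts fall with distance, so each count was divided by the count expected at that distance, a smooth mean curve through all pairs of the same library. The median observed over expected ratio of the 590 pairs was 0.259 in replicate 1 and 0.278 in replicate 2, a mean of 0.269 ± 0.0139 (SD, n = 2). A few very high pairs lift the mean curve, so medians lie below 1 across the locus: all 10415 pairs had 0.357 and 0.404. The 4408 other Igh pairs within the same distance range had 0.341 and 0.350. The proximal by intermediate pairs were thus lower than these other pairs in both replicates, by more than the SD of their own 2 values. In replicate 1 other blocks of the same range were about as low. With fragments at higher coordinates than both sections, intermediate fragments had 0.265 and 0.351 and proximal fragments 0.200 and 0.384. With fragments at lower coordinates than both, intermediate fragments had 0.486 and 0.484 and proximal fragments 0.489 and 0.315. Pairs inside the sections over the same range had 0.212 and 0.257 (proximal, 108 pairs) and 0.146 and 0.212 (intermediate, 383 pairs), but their median distances were 231 and 198 kb against 619 kb, so these values are not set against those of the block; pairs of like distance are compared further on.

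The shortfall against the other Igh pairs was seen at nearly every distance. At 100 to 200 kb the 20 proximal by intermediate pairs had median counts of 42 and 171, against 150 and 266 for the other pairs. At 500 to 600 kb the 100 pairs had 23 and 61.5, against 43.5 and 89.5. At 900 to 1100 kb the 57 pairs had 16 and 31, against 25 and 49. In 9 of 9 distance bins in replicate 1 and 8 of 9 in replicate 2 the proximal by intermediate median was the lower value; the exception was 400 to 500 kb in replicate 2, with 88 against 87.

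**Figure D1:**
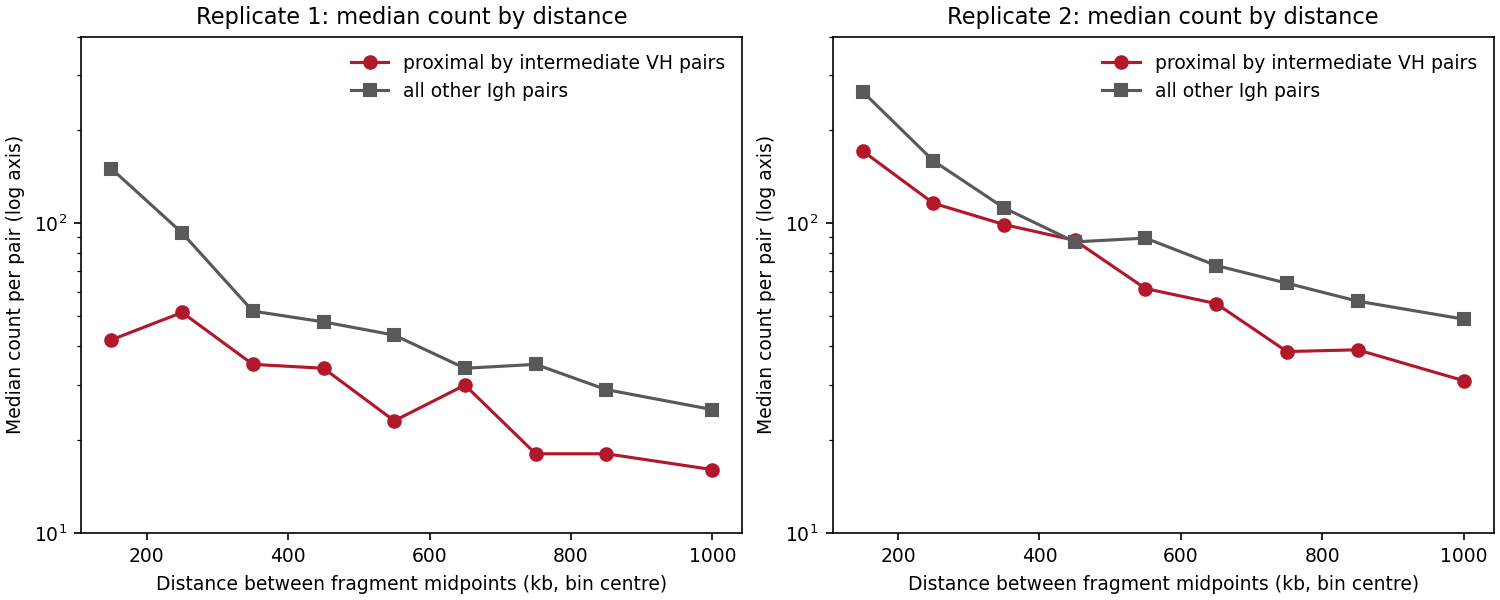
Median count per pair (log axis) against the distance between fragment midpoints in kb, for the 590 proximal by intermediate VH pairs (red circles) and all other Igh pairs (grey squares), 1 panel per replicate and 1 point per distance bin. The red line lies below the grey in 9 of 9 bins in replicate 1 and 8 of 9 in replicate 2.

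That order did not hold once the yield of each primer was taken out. When ratios were divided in 50 rounds by the means of their forward primer and their reverse primer, the median was 0.904 in replicate 1 and 0.802 in replicate 2, now above the 0.748 and 0.697 of the other pairs in the same distance range. Bin by bin, the corrected median was the lower value in 5 of 9 bins in replicate 1 and in 1 of 9 in replicate 2. A second correction, added after the data were seen, removed the median of each forward primer, each reverse primer and each of 20 distance bins from the log2 ratios; its residual is called the adjusted log2 ratio, and 0 is the level given by both fragments and the distance. By it the proximal by intermediate median was lower in 5 of 9 bins in each replicate. Whether the block lies below or above other pairs of like distance therefore turned with the treatment of primer yield, and no direction is given for it.

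The counts fell with distance along a slope of log10 count on log10 distance of -0.75 in replicate 1 and -1.09 in replicate 2, a mean of -0.92 ± 0.25 (SD, n = 2). Other pairs in the same range gave -0.91 and -0.93, so the slopes differed by less than the spread between the replicates. The 330 pairs with a proximal reverse fragment gave -1.06 and -1.07, while the 260 with a proximal forward fragment gave -0.37 and -1.10. The spread between replicates was thus found in pairs of that primer orientation.

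No pair between the sections passed the calling rule, a Benjamini-Hochberg q under 0.01 in both replicates from a Weibull fit to the distance-standardised counts. Over all 10415 pairs 25 passed (0.24%), a share so low that a count of 0 among 590 pairs lies near it. In single replicates no pair passed either, against 0.432% of all pairs in replicate 1 and 0.374% in replicate 2. By the same Weibull fit, unadjusted p was under 0.05 in both replicates for 2 pairs (0.339%), against 1.58% of all pairs. With log2 counts in the fit no pair passed here or among all pairs (0%), and 5 pairs (0.847%) had an unadjusted p under 0.05 in both, against 2.42%. With primer-corrected ratios 1 pair passed (0.169%), against 0.307% of all pairs, and 10 (1.69%) had an unadjusted p under 0.05 in both, against 1.18%. The lowest q on uncorrected counts was 0.0113 in replicate 1 and 0.571 in replicate 2. The SD in the fit grows with very high pairs at like distances, so a pair that did not pass may still be raised.

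Strong pairs by ratio were also rarer than elsewhere on uncorrected counts. A ratio of at least 1 in both replicates was found for 44 pairs (7.46%), against 15.7% of all pairs, and a ratio of at least 2 for 18 (3.05%), against 5.71%. After division by primer means, 26 pairs (4.41%) had at least 2 in both, against 3.34%. By the adjusted log2 ratio, 21 (3.56%) had at least 1 in both, against 5.74%, and 4 (0.678%) had at least 2, against 1.22%. Some of the 21 lay below the count expected at their distance in both replicates. Forward 117 with reverse 322 had only 7 and 20 counts, ratios of 0.108 and 0.185, and forward 377 with reverse 192 had ratios of 0.488 and 0.305. The 10 best counted pairs held 14.4% and 14.5% of the block's counts, and the 59 best counted held 47.6% and 42.6%.

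A single proximal fragment stood first among the strong pairs. Reverse 171 (chr12:114996747-115006242) joined forward 364 (chr12:115684492-115688924), 685 kb away, with 721 counts in replicate 1 and 1106 in replicate 2, where 74.5 and 178 were expected. The ratio was 7.94 ± 2.45 (SD, n = 2), the highest in the block. With forward 344 (chr12:115621851-115623605), 621 kb away, it had 620 and 1004 counts and a ratio of 5.70 ± 2.52. With forward 369 (chr12:115696906-115699931), 697 kb away, it had 528 and 644 counts and a ratio of 5.61 ± 2.31. These were the 3 highest mean ratios of the 590, and each ratio was at least 3.91 in both replicates. By the Weibull fit, their unadjusted p was 4.98e-05, 0.00149 and 0.000592 in replicate 1. In replicate 2 it was 0.204, 0.286 and 0.270, so by that fit none stood out there.

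Reverse 171 was well counted with every intermediate partner. Its 22 pairs had 52 to 721 counts in replicate 1, median 190, and 76 to 1106 in replicate 2, median 217.5. They held 16.05% and 11.4% of the block's counts, and their median ratio was 2.03 and 1.07, against 0.901 and 0.471 for its pairs with fragments outside the intermediate section. The outside partners differed: the 35 at higher coordinates than the intermediate section had 1.09 and 1.04, in replicate 2 about the intermediate level. By the adjusted ratio its partners fell into an order by section. The 31 partners at lower coordinates than the proximal section had medians of -0.94 and -0.51, the 10 proximal partners 0.00 and -0.06, the 22 intermediate partners 0.72 and 0.83, and the 35 partners at higher coordinates than the intermediate section 0.14 and 0.04. In both replicates the intermediate section thus had the highest median for this fragment and the lowest coordinates the lowest. The fragment medians used for the adjustment included these 22 pairs themselves.

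Within the intermediate section the high partners of reverse 171 lay together. From forward 338 to forward 377 (chr12:115609122-115724782, 116 kb, a stretch chosen after its values were seen), 6 of 8 partners had an adjusted log2 ratio of at least 1 in both replicates. Forward 344 had 4.22 and 4.12, forward 364 had 3.14 and 2.85, and forward 369 had 1.64 and 2.14. Forward 340 (chr12:115618625-115620230) had 1.93 and 2.49 from 386 and 536 counts. Forward 338 (chr12:115609122-115616162) had 2.11 and 1.33 from 127 and 139 counts, and forward 377 (chr12:115723372-115724782) had 1.92 and 1.44 from 99 and 140.

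The stretch was not uniform. Forward 346 (chr12:115628291-115630212), less than 10 kb from forward 344, had -0.79 and 0.24 despite 204 and 227 counts, and forward 371 (chr12:115701558-115705584) had 0.37 and 0.71. The median over the stretch was 1.92 and 1.79, against 0.43 and 0.65 for the fragment's other 14 intermediate partners. Of those 14, forward 317 (chr12:115544761-115549492) alone had at least 1 in both, with 1.05 and 1.02.

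The other 24 proximal fragments did not share this level with the stretch. Over their 202 pairs there, 8 had an adjusted log2 ratio of at least 1 in both replicates, a share near that of the block (21 of 590, 3.56%) and of all pairs (5.74%). The median of each fragment lay between -0.48 and 0.71 in replicate 1 and between -0.62 and 0.78 in replicate 2, below the 1.92 and 1.79 of reverse 171. The reverse fragments on either side, reverse 161 (chr12:114950757-114952521) and reverse 181 (chr12:115048372-115052571), had 0 of 8 such pairs each. The nearest forward fragments, forward 165 (chr12:114973711-114977500) and forward 174 (chr12:115011448-115018809), had 0 of 9 each. Proximal forward fragments were read only with the reverse fragments of the stretch, never with the forward partners of reverse 171. Only the reverse fragments therefore compare the same partners. The contrast was made after the values were seen and has no test.

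**Figure D2:**
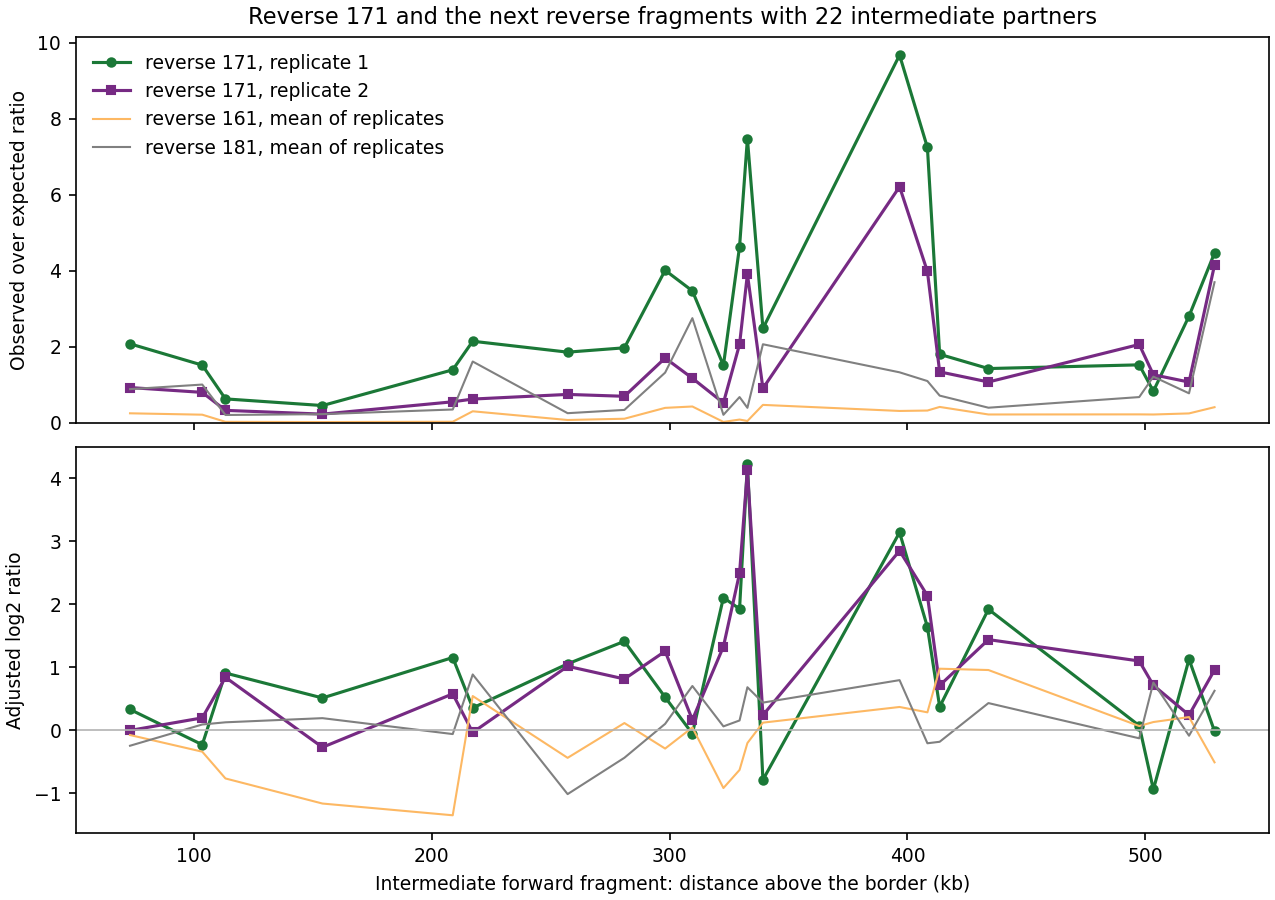
Observed over expected ratio (upper panel) and adjusted log2 ratio (lower panel) of reverse 171 with its 22 intermediate forward partners, by the partner's distance in kb above the border between the sections, for replicate 1 (green circles) and replicate 2 (purple squares); thin lines give the mean of both replicates for reverse 161 (orange) and reverse 181 (grey). In the lower panel both replicates of reverse 171 peak at the same partners, forward 344 and forward 364, with adjusted values of 4.22 and 4.12 and of 3.14 and 2.85. The lines of the neighbouring fragments lie lower at these partners.

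At the far end of the intermediate section, forward 415 (chr12:115816276-115822016) supplied 5 of the 10 highest mean ratios, each with a different proximal fragment. With reverse 171, 818 kb away, it had 273 and 403 counts and a ratio of 4.31 ± 0.222. With reverse 235 (chr12:115225314-115233376), 590 kb away, it had 322 and 1119 counts and a ratio of 3.87 ± 0.208. Its pairs with reverse 137 (chr12:114864513-114868474) and reverse 208 (chr12:115148612-115152740) had 4.18 ± 2.73 and 3.83 ± 3.33, the latter SD coming near its mean. The pair with reverse 181 had 3.70 ± 0.804.

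These pairs went with a generally high fragment. Forward 415 had a median ratio of 1.22 and 0.761 over its 15 proximal partners and 0.992 and 0.813 over its other partners, and by the adjusted log2 ratio none of its 15 pairs reached 1 in both replicates. Of the 18 pairs with a ratio of at least 2 in both replicates, 5 involved forward 415, 5 reverse 171, and 9 either of them, 1 pair being common to both. Of the 21 pairs with an adjusted log2 ratio of at least 1 in both, 7 involved reverse 171 and none forward 415.

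**Figure D3:**
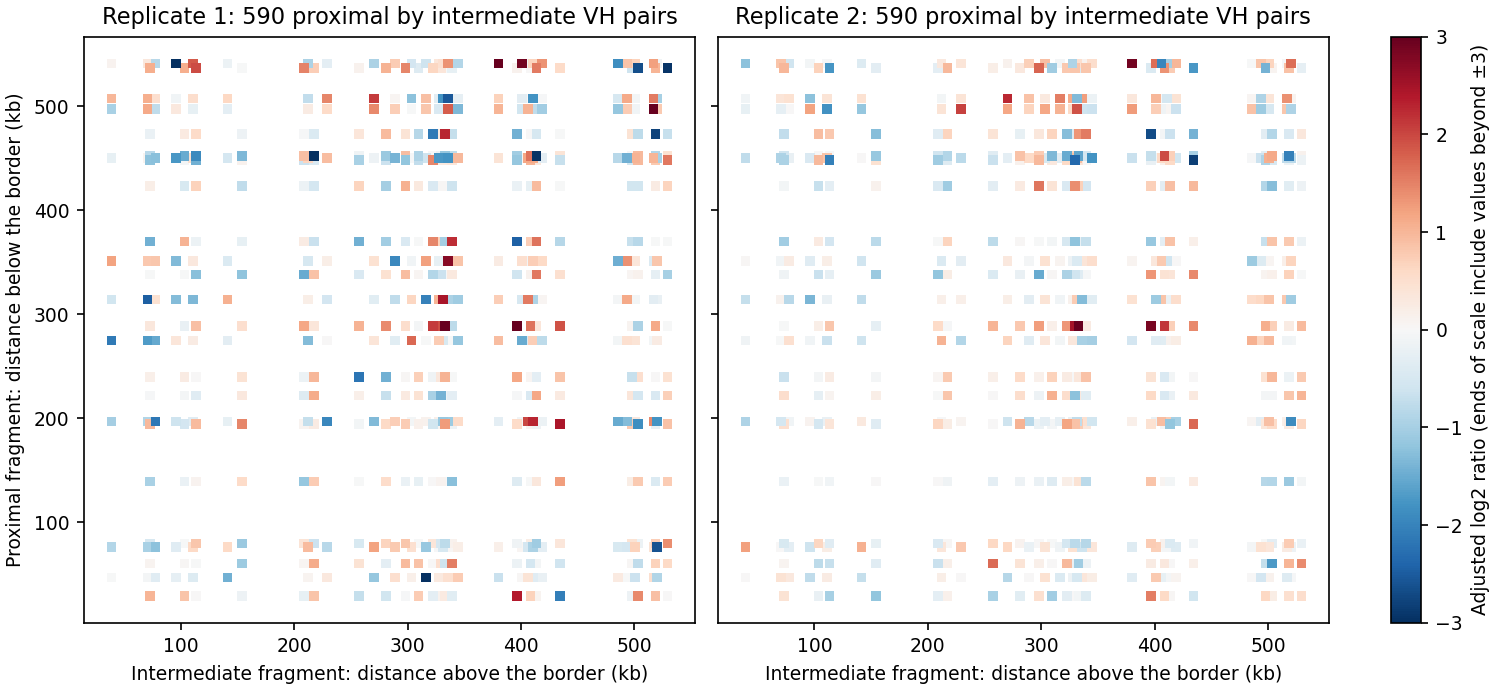
Adjusted log2 ratio (colour, with the ends of the scale including values beyond 3 in size) of the 590 pairs in each replicate, with the proximal fragment's distance below the border between the sections on the vertical axis and the intermediate fragment's distance above it on the horizontal axis, both in kb. The row of reverse 171 holds dark red squares 333 and 397 kb above the border, at forward 344 and forward 364, in both panels; no block of neighbouring rows and columns is uniformly red or blue.

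Forward 103 (chr12:114747437-114750051), the assayed fragment with the lowest coordinates in the proximal section, gave the only pair that passed after primer correction. With reverse 357 (chr12:115668148-115671981), 921 kb away, it had 188 counts in replicate 1 and 199 in replicate 2 against 58.7 and 85.5 expected, a ratio of 2.76 ± 0.619 (SD, n = 2). Divided by primer means the ratio was 7.27 and 6.89 (q = 0.00299 and 0.00274, Weibull fit with Benjamini-Hochberg adjustment), and the adjusted log2 ratio was 3.01 and 2.89. It also passed when primer medians were used in place of means.

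This fragment was high with further partners of the same stretch. With reverse 365 (chr12:115688925-115693221), 942 kb away, it had 122 and 82 counts and adjusted log2 ratios of 2.90 and 1.67. With reverse 374 (chr12:115706727-115709849), 960 kb away, it had 87 and 144 counts and adjusted values of 1.35 and 1.01. Within the intermediate section these were the fragment's only pairs of at least 1 in both replicates, 3 of its 9 in the stretch and 0 of its 17 elsewhere. Outside that section, 6 of its 14 proximal partners also reached 1 in both. So did 1 of its 30 partners at lower coordinates than the proximal section and 2 of its 37 at higher coordinates than the intermediate section. Among those 30, the highest adjusted values were 5.19 and 5.15. Reverse 365 begins where forward 364, the top partner of reverse 171, ends.

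Forward 115 (chr12:114778143-114787052) with reverse 322 (chr12:115558984-115561357), 778 kb away, had 255 and 349 counts, a ratio of 3.66 ± 0.492 and adjusted log2 ratios of 2.11 and 2.26. It was the tenth highest mean ratio and the remaining pair with an adjusted value of at least 2 in both replicates, beside those of reverse 171 with forward 344 and forward 364 and of forward 103 with reverse 357. Forward 329 (chr12:115586578-115589686) with reverse 137, 722 kb away, had 308 and 439 counts, a ratio of 3.89 ± 0.767 and adjusted values of 1.07 and 1.59. The 21 pairs with at least 1 in both were 426 to 1024 kb apart, and none of them used an intermediate fragment below forward 317.

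The order of the fragments inside the block closely followed their order outside it. Over the 73 fragments, Spearman's rho between the median log2 ratio with partners of the opposite section and with all other partners was 0.901 in replicate 1 and 0.859 in replicate 2, and Pearson's r was 0.883 and 0.841. The fragments share primers and libraries between the axes, so these are descriptions. Fragment length had a weaker relation to the level inside, with rho of 0.218 and 0.383. The median ratio of a fragment had rho of 0.897 between the replicates, and the median adjusted log2 ratio 0.407.

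**Figure D4:**
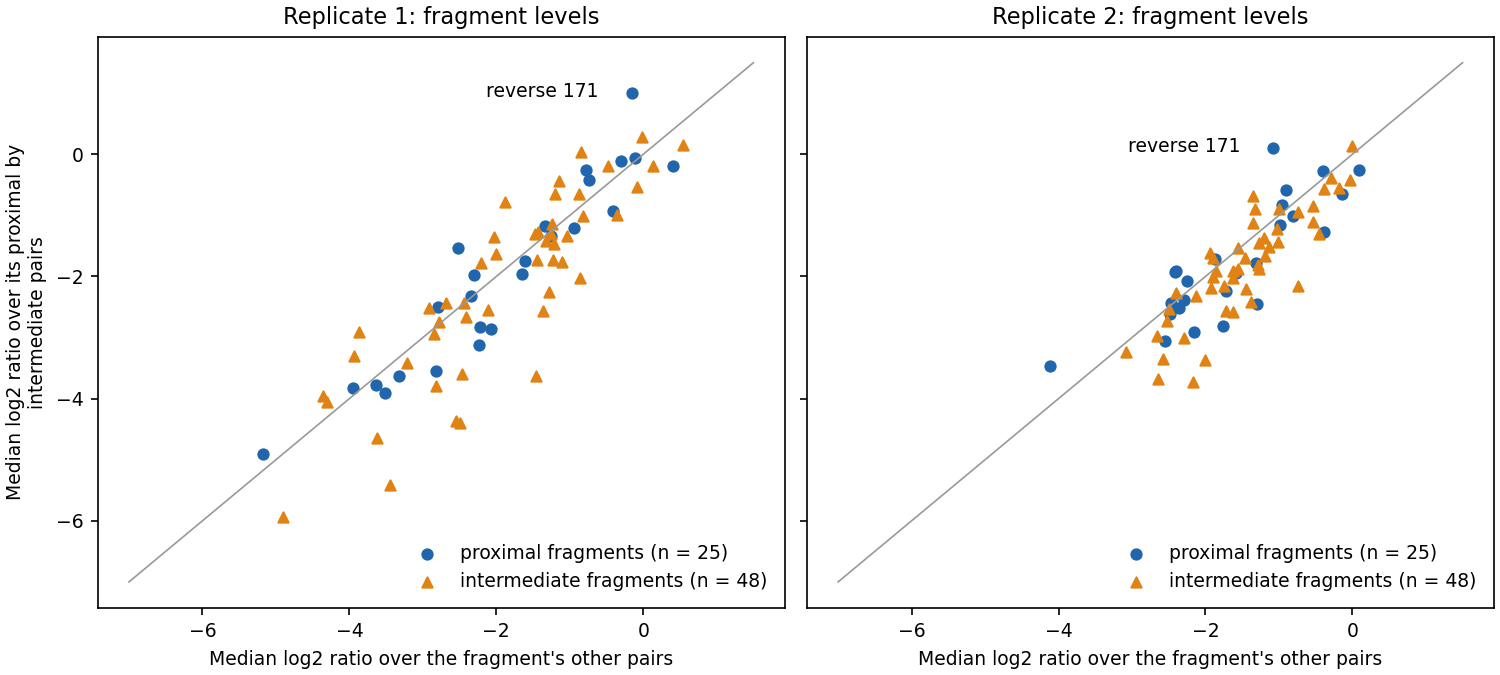
Median log2 ratio of each fragment over its proximal by intermediate pairs (vertical axis) against that over its other pairs (horizontal axis), for 25 proximal fragments (blue circles) and 48 intermediate fragments (orange triangles), 1 panel per replicate, with the line of equal values in grey. The fragments keep much the same order on both axes (rho 0.901 and 0.859); reverse 171 lies above the line in both replicates, and a group of intermediate fragments lies below it.

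Some fragments departed from their level outside, among them reverse 171 and 5 intermediate reverse fragments near the border, the latter named here after their values were seen. Reverse 171 was higher inside the block by 1.16 and 1.18 on the log2 scale. Reverse 260 had a difference of -1.91 and -1.42, reverse 280 (chr12:115385320-115386802) -2.17 and -1.36, reverse 274 (chr12:115364817-115370798) -1.81 and -0.96, reverse 271 -1.96 and -0.78 and reverse 286 (chr12:115400266-115402099) -1.16 and -0.61. Drops near that of reverse 286 were also found far from the border, with -1.02 and -0.73 for reverse 413 and -0.97 and -0.75 for reverse 335. Reverse 403 went the other way, with 0.17 and 0.67. The 5 fragments near the border were thus lower with proximal partners than with their others in both replicates, but not alone in this. The ratio used does not allow for the partners' own levels. By the adjusted log2 ratio, which does, their medians inside the block lay between -0.79 and 0.28 in replicate 1 and between -0.41 and 0.07 in replicate 2.

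After reverse 171, the highest proximal fragments lay close to their own levels outside the block. Reverse 137 had a median ratio of 0.931 and 0.823, against 0.808 and 0.757 outside, and reverse 181 had 0.962 and 0.560, against 0.923 and 0.513. Beside forward 415, the highest intermediate fragments were reverse 339 (chr12:115616163-115618624), with 1.12 and 0.771, and reverse 374, with 0.711 and 1.12. A median above 1 was found for 4 fragments in replicate 1 and 2 in replicate 2.

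Among the lowest fragments, 2 were close to 0 counts in replicate 1. Forward 117 (chr12:114791568-114794187) had median counts of 1 and 14 over 26 pairs and a median ratio of 0.017 and 0.083, about as low as outside the block (0.016 and 0.052). Reverse 345 had median counts of 0 and 18.5 over 10 pairs. Reverse 231 (chr12:115209244-115211291) and forward 174 in the proximal section, and reverse 271 (chr12:115359372-115362251) and forward 295 (chr12:115443133-115444953) in the intermediate section, completed the 3 lowest of each, with median ratios between 0.019 and 0.129. These 4 were counted in both replicates, with medians of 5.5 to 14 counts in replicate 1 and 29 to 42 in replicate 2, below the 24 and 61 of the block.

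Individual pairs reproduced less well than fragments. Over the 590 pairs, rho between the replicates was 0.787 for counts, 0.756 for the ratio, 0.403 after division by primer means and 0.331 for the adjusted log2 ratio, and over all pairs it was 0.787, 0.753, 0.563 and 0.460. Pairs share fragments, so these too are descriptions. The replicates thus ordered the pairs less alike once fragment levels had been taken out.

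Among the 193 pairs with at least 100 counts in 1 replicate, forward 233 (chr12:115211655-115215965) with reverse 260 (chr12:115327864-115330485) differed most. These fragments lie 115 kb apart across the border between the sections, and had 34 counts in replicate 1 and 1573 in replicate 2, or 0.101% and 2.47% of the block's counts. The pair was the best counted of the block in replicate 2, and its ratio was 0.0404 and 1.25. Reverse 235 had 3 of the 5 largest differences, and not in 1 direction: 660 and 391 counts with forward 346, 105 and 840 with forward 317, and 322 and 1119 with forward 415. The fifth was forward 415 with reverse 208, with 475 and 298. Of the 5, forward 415 with reverse 235 still had similar ratios to the expected count, 3.72 and 4.01.

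Pairs across the border were compared with pairs of like distance on 1 side of it. In 4 bins from 100 to 500 kb, the median log2 ratio of pairs across the border minus that of pairs within the sections was -1.04, -0.15, -0.02 and -0.36 in replicate 1 and -0.16, -0.04, 0.07 and 0.21 in replicate 2, with means of -0.39 and 0.02. The replicates differed by more than the mean difference on this scale. With the adjusted ratio the means were -0.19 and -0.21, and the bins gave -0.29, -0.18, 0.13 and -0.42 in replicate 1 and -0.42, -0.09, -0.01 and -0.32 in replicate 2. Pairs across the border were lower in 3 of 4 bins of replicate 1 and in all 4 of replicate 2 on this scale, with 20 to 73 pairs across the border in a bin. The pairs within the sections were not alike. At 100 to 200 kb their adjusted medians were 0.71 and 0.49 within the proximal section and 0.16 and 0.10 within the intermediate section. At 300 to 400 kb they were 0.22 and -0.11, and -0.06 and -0.00014.

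With each section divided into 3 parts of equal length, the 9 sub-blocks had median adjusted log2 ratios between -0.16 and 0.30. None of the 21 pairs with at least 1 in both replicates fell in the part of the intermediate section nearest the border (chr12:115290001-115466666), which has 44, 48 and 28 pairs with the proximal parts. The part of the proximal section farthest from the border (chr12:114735001-114920000) held 5 of the 21, among its 90 pairs with the middle intermediate part. With the far intermediate part it held 7, among 80 pairs. The middle proximal part (chr12:114920001-115105000) held 4 among 100 pairs and 4 among 88. In that part, however, 7 involved the single fragment reverse 171 and the remaining 1 involved reverse 192. The part next to the border (from position 115105001) held 0 among 60 pairs and 1 among 52.

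The fragments just inside and just outside the limits of the sections were read in the same way. Below the lower limit, reverse 94 (chr12:114722112-114723013) had a median ratio of 0.0494 and 0.287 with intermediate partners, and forward 103, the nearest fragment inside, had 0.128 and 0.257. At the upper limit, forward 415, whose midpoint lies inside although its end lies outside, had 1.22 and 0.761 with proximal partners, and reverse 418 (chr12:115823136-115824506), just outside, had 0.169 and 0.163. At the border, reverse 249 (chr12:115259493-115262224) had 0.254 and 0.212 with intermediate partners and reverse 260 had 0.0444 and 0.223 with proximal partners.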

How the data were processed

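The authors deposited 1 matrix of raw counts per replicate, with a forward primer in each row and a reverse primer in each column. Novoalign and mm9 are named in the submitters' processing notes, and the aligner's version is not given in the sources used here. The matrices were exported from my5C after a transpurge step, per the file headers. Gene desert pairs were not analysed here.

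Python 3.11.15, NumPy 2.4.6, SciPy 1.17.1, pandas 2.3.3, statsmodels 0.14.6 and matplotlib 3.10.9 were used. For each replicate, lowess (span 0.3) of counts on log10 distance over the 10415 pairs gave the expected count, and lowess of squared residuals the SD. A Weibull fit to the standardised residuals gave an upper-tail p, adjusted by Benjamini-Hochberg over all pairs. A pseudocount of 1 was used for log2 ratios. On simulated data with known raised pairs, only the recovery of the adjusted log2 ratio was held to a limit. The calls were counted there without one, so the calling rule was not checked in that way. Named pairs are every called pair, the 10 highest mean ratios and the 5 largest replicate differences in share; named fragments are the 3 highest and 3 lowest per section by median ratio over at least 10 pairs. Pairs named by the adjusted ratio and the stretch of reverse 171 partners were chosen after their values were seen. The section, its members and the lists were chosen with earlier results of these data known. The replicates are separate libraries of 1 group, and the SD over n = 2 measures only their spread. Other spans, expected curves, primer corrections, thresholds and filters were tried as alternatives.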

Additional observations from a re-analysis of the deposited data

How the results depend on the processing

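The count of called pairs stayed at 0 with spans 0.1 and 0.6, an expected count taken from bin medians, q under 0.001 or 0.05, log2 counts, at least 10 counts in both replicates, pairs at least 50 kb apart, either replicate alone, and without reverse 171. It was 1 with primer means and 1 with primer medians, the pair of forward 103 with reverse 357. The median ratio, 0.269, was 0.288 with span 0.1, 0.238 with span 0.6, 0.732 with bin medians, 0.853 with primer means, 1.09 with primer medians, 0.347 over pairs with at least 10 counts, 0.546 as a mean, 0.248 without reverse 171 and 0.999 with primer and distance medians; the last 2 were added after the data were seen. The replicates alone gave 0.259 to 0.278. The slope was -0.42 over pairs with at least 10 counts, which leaves out the weakest distant pairs by its construction, and -1.09 to -0.75 in single replicates. The mean difference at the border was -0.19, with -0.39 to 0.02 in single replicates, -0.35 over 50 to 300 kb, and 0.02 and -0.13 with the border 50 kb lower and higher. Both replicates were below 0 with span 0.1 (-0.26 and -0.08), bin medians (-0.38 and -0.02), primer means (-0.27 and -0.02), primer medians (-0.23 and -0.05), primer and distance medians (-0.19 and -0.21) and over 50 to 300 kb (-0.59 and -0.10); they differed in sign with span 0.6, the 10-count minimum, the 50 kb minimum and either moved border, and were -0.42 and 0.00 without reverse 171. Of the 10 highest mean ratios, 10 moved by more than their SD with bin medians, 7 with primer means, 4 with span 0.6 and 2 with span 0.1. No paired analysis was possible because there is 1 group. Depth limits single pairs: the median pair had 24 and 61 counts.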
